A study of Rattus norvegicus with 21 samples.

Results

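The macrophages compared here are blood-derived immune cells sorted from the brain of rats after a stroke, in 4 libraries whose titles carry the prefix 7D, read as 7 days. They were set against microglia sorted from sham-operated rats in 4 libraries of the same set. These 8 of the 21 libraries of the series were selected by their titles. The stroke model, MCAO, blocks the middle cerebral artery with a suture for 90 min, after which the suture is withdrawn so that blood returns. In the sham operation the carotid artery was exposed and its external branch tied without the suture. All rats were adult animals of the strain given as Winstar, and cells came from the operated side of the perfused brain. Microglia were defined by flow cytometry as CD11b+ cells with low CD45, and blood-derived macrophages as CD11b+ cells with high CD45. Microglia of MCAO rats of the same set (4 libraries) served as a reference that shares the injury, and a set sequenced 24 h after operation (3 libraries each of macrophages, MCAO microglia and sham microglia) as a reference for the early response.

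Microglia are the resident macrophages of the brain, settled there during development, and in the healthy brain they survey the tissue. After a stroke, monocytes enter from the blood through damaged vessels and become macrophages that clear debris and can release inflammatory or repair factors. CD45 is a surface phosphatase of blood cells that is low on resting microglia and high on cells from the blood. Injury can raise it on microglia, and macrophages that stay in the brain can lose part of their blood-cell profile. The contrast of MCAO macrophages with sham microglia joins the origin of the cells with the injury, and these cannot be told apart within it.

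The labels leave limits that bear on every value below. The source name and the cell fraction field of all 4 libraries titled as 7D macrophages read microglia and CD11b+CD45low, against their titles, and the treatment field of all 12 libraries of the 7D set reads 24 h. The treatment field of the sham libraries names an injection of PBS. Titles and cell fraction also conflict for macrophage replicate 3 and MCAO microglia replicate 3 of the 24h set. The replicates are called biological, but the animals behind each library are not given, and p-values reflect only how much these libraries vary, which may be technical. Except for Chi3l1 and Nos2, the files list Ensembl transcript identifiers without gene names, and 0 of 30404 could be paired with a symbol. The marker lists for microglia, monocytes, neutrophils, lymphocytes and brain cells could therefore not be applied, and the cell type was not checked against its defining markers.

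Total expected counts (the number of reads that RSEM assigns to each transcript) were 11444200 to 15401910 in the macrophage libraries and 11115359 to 14048571 in the sham libraries. Sham replicate 3 stood apart from the other sham libraries. Its root mean square log2 difference from the mean of the other sham libraries was 0.962, against 0.700 to 0.728 for the other 3, and it alone was the separate library for 1250 of 13384 transcripts tested (491 high and 759 low). The macrophage libraries stood 0.681 to 0.723 from the mean of their group. The main results that sham replicate 3 moved most are given with and without it.

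Late macrophages differed from sham microglia in more than 1 of every 2 transcripts tested. By edgeR's quasi-likelihood test with Benjamini-Hochberg adjustment at 0.05, 3807 of 13384 transcripts were higher in macrophages (28.4%) and 3766 were lower (28.1%), 7573 in all (56.6%). Most of these differences were small: the median fold was 1.85 among the higher and 1.74 among the lower, and 56.7% and 61.1% of them were under 2-fold. At least 2-fold differences were found for 1647 higher transcripts (12.3%) and 1466 lower ones (11.0%). Without sham replicate 3, 4375 were higher and 3841 lower, of which 1951 and 1509 were at least 2-fold. The levels of the 4 macrophage and the 4 sham libraries did not overlap for 3450 transcripts that were higher (25.8%) and 3307 that were lower (24.7%), 6757 in all (50.5%). When 2-fold itself was tested as the minimum (edgeR's glmTreat), 939 were higher (7.02%) and 704 lower (5.26%).

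Large folds were found in both directions in similar numbers. Among higher transcripts, 641 (4.79%) differed at least 4-fold, 290 (2.17%) at least 8-fold, 119 (0.889%) at least 16-fold and 42 (0.314%) at least 32-fold. Among lower transcripts the same limits held 528 (3.95%), 255 (1.91%), 88 (0.658%) and 39 (0.291%).

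The size of the difference varied with how abundant a transcript was. When the tested transcripts were divided into 5 equal parts by their mean level in the 8 libraries, the share past the threshold rose from 44.8% in the least abundant part to 65.5% in the most abundant. Over the same parts the median fold of the called transcripts fell from 4.38 to 1.55. Many abundant transcripts were thus called with folds well under 2, while scarce transcripts were called where the fold was large.

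**Figure D1:**
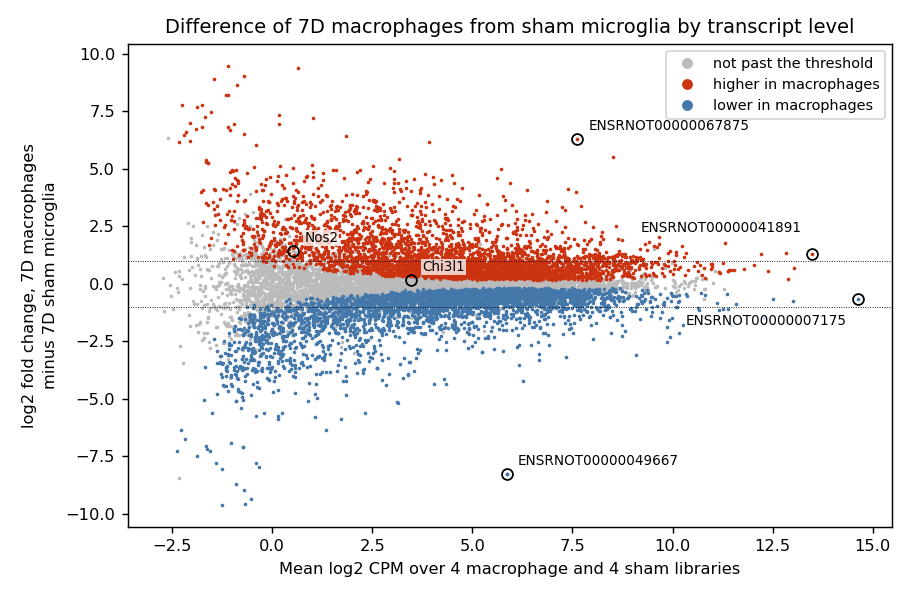
Log2 fold change of 7D macrophages against 7D sham microglia (vertical axis) for each transcript tested, by its mean log2 CPM over the 8 libraries (horizontal axis); dotted lines mark 2-fold, colours mark transcripts past an adjusted p of 0.05, and circles mark the transcripts and genes described in the text. Called transcripts lie on both sides, 3807 above and 3766 below 0, and the cloud narrows from the least to the most abundant transcripts.

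Some transcripts were close to absent in 1 of the cell groups. In all 4 sham libraries 46 of the higher transcripts had fewer than 3 counts, and their median level in macrophages was 1.75 CPM (library-size-scaled counts, with edgeR's TMM factors), with a maximum of 11.0 CPM. None of the 46 was under 3 counts in all 4 libraries of 7D MCAO microglia. In the opposite direction, 43 of the lower transcripts had fewer than 3 counts in all 4 macrophage libraries, with a median of 1.77 CPM in sham microglia and a maximum of 7.61 CPM. Of these 43, 7 were also under 3 counts in all MCAO microglia libraries. The filter on low counts used all 12 libraries of the 7D set. These transcripts passed it through the groups other than the one close to absence, MCAO microglia included. The median level in 7D MCAO microglia was 1.07 CPM for the 46 and 0.276 CPM for the 43. Which group let each transcript pass was not tested.

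In terms of reads, the called transcripts carried a large part of both transcriptomes. Transcripts higher in macrophages held 49.8% ± 0.557 of counts in macrophages (SD, n = 4) and 28.3% ± 1.18 in sham microglia (n = 4). Transcripts lower in macrophages held 21.8% ± 1.01 and 41.1% ± 0.769. These shares follow from the contrast that chose the transcripts and are a description without a test. The libraries of 7D MCAO microglia were not a side of that contrast, but they shared its filter and its estimate of the spread. In them the same transcripts held 43.8% ± 0.512 and 26.1% ± 1.17 (n = 4). The same sham libraries helped to choose these transcripts, so the MCAO shares are not independent of the choice either. A small part of the called transcripts carried much of the difference. Of the 3807 higher transcripts, 115 made up 50% of the summed CPM difference in that direction. Of the 3766 lower ones, 86 did. The 10 largest held 20.8% and 22.3%.

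The transcripts that were lower in macrophages were longer. Their median length was 2543 nt, against 1707 nt for those that were higher and 2004 nt for those not called. The mean length weighted by the deposited TPM was 1547, 1530, 1501 and 1493 nt in macrophages, and 1713, 1734, 1578 and 1710 nt in sham microglia. All macrophage libraries lay below all sham libraries, and sham replicate 3 lay nearest to them. The difference was -165.9 nt, with an exact two-sided permutation p of 0.0286, the smallest that 4 against 4 libraries allow, and an adjusted p of 0.143 over the 5 measures of library composition. Without sham replicate 3 the difference was -201.1 nt and the adjusted p of the exact permutation test was 0.0286. This is the smallest p that 4 against 3 libraries allow. Sham replicate 3 stood apart in this measure itself, so the lower p is no independent support. Mean fragment lengths were 182 to 193 nt in macrophages and 178 to 189 nt in sham microglia, and their part in this difference was not tested. The weighted mean length in 7D MCAO microglia was 1605, 1604, 1530 and 1581 nt, a range that reached into those of macrophages and sham microglia.

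Other measures of composition also moved with sham replicate 3. The 1000 most abundant transcripts of each library held 61.3% ± 0.484 of counts in macrophages and 59.7% ± 1.83 in sham microglia (SD, n = 4; exact permutation test, adjusted p = 0.238), and the difference of 1.61 percentage points became 2.51 without sham replicate 3 (adjusted p = 0.0286). Transcripts at 1 CPM or more numbered 12257, 12314, 12339 and 12288 in macrophages and 12565, 12934, 12318 and 12653 in sham microglia. In 7D MCAO microglia they numbered 12150, 12108, 12137 and 12093, below every macrophage library, so a low number was not particular to macrophages. Macrophages and sham microglia overlapped through sham replicate 3 alone, and the adjusted p of the exact permutation test was 0.143 with it and 0.0286 without it. Each 0.0286 here is the smallest p that 4 against 3 libraries allow, so leaving out that library gives no independent support.

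Libraries were then compared over the 14252 transcripts that passed the filter on low counts when all 21 libraries were used. The root mean square difference between a macrophage and a sham library was 1.46 on the log2 CPM scale (mean of 16 pairs, 1.35 to 1.56). Within groups it was 0.855 between macrophage libraries (6 pairs, 0.819 to 0.906) and 0.948 between sham libraries (6 pairs, 0.814 to 1.09), so every pair across the groups was farther apart than every pair within them. The mean difference between 7D macrophages and 7D MCAO microglia was 1.10 (16 pairs, 0.954 to 1.23), and that between 7D MCAO microglia and sham microglia was 1.34 (1.24 to 1.46). These pairs share libraries and carry no test. By this measure late macrophages lay nearer to 7D MCAO microglia than to sham microglia.

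**Figure D2:**
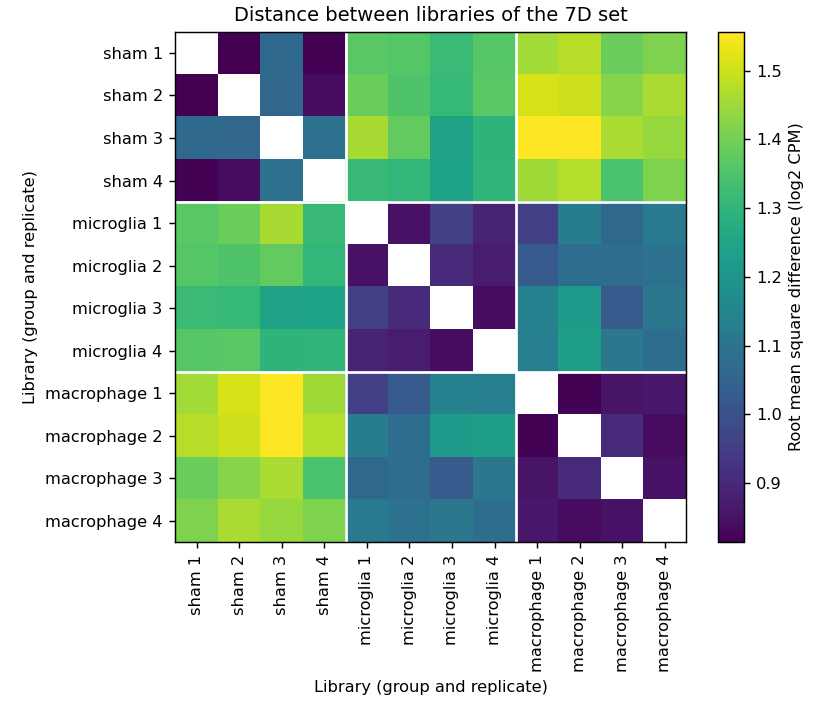
Root mean square difference of log2 CPM between each pair of the 12 libraries of the 7D set (colour scale), ordered by group and replicate on both axes; white lines separate the groups and the diagonal is blank. The brightest block, 1.35 to 1.56, is that of macrophages with sham microglia, and within the sham block the pairs of sham replicate 3 are the lightest, at 1.06 to 1.09.

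The counts of called transcripts followed the same order. Against sham microglia, 7D MCAO microglia had 3070 transcripts higher (22.9%) and 3110 lower (23.2%). Directly against 7D MCAO microglia, 7D macrophages had 871 higher (6.51%) and 600 lower (4.48%), all by edgeR in the same fit. Same-numbered libraries of these groups varied together, and with the replicate number as a block the counts were 1153 and 874. The first contrast shares the sham libraries with the macrophage contrast, so the 2 are set side by side only.

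To place late macrophages on an axis that their own contrast did not build, each library was projected on the line from 24h sham microglia (position 0) to 24h macrophages (position 1). The 4 macrophage libraries lay at 0.63, 0.65, 0.57 and 0.63, and the 4 sham libraries of the 7D set at 0.14, 0.11, 0.12 and 0.12. All 7D macrophages lay above all 7D sham microglia, and the groups did not overlap. The 24h macrophages sit at 1 because they define the axis, so the gap between them and 7D macrophages is no measured comparison. Mean positions were 0.620 ± 0.0359 for 7D macrophages, 0.393 ± 0.0403 for 7D MCAO microglia and 0.122 ± 0.0132 for 7D sham microglia (SD, n = 4 each). Macrophages stood 0.498 above sham microglia and 0.228 above MCAO microglia, each with an exact two-sided permutation p of 0.0286 (also 0.0286 after adjustment over 3 comparisons), the smallest that 4 against 4 libraries allow. Same-numbered libraries of 7D macrophages and 7D MCAO microglia varied together, and in the 4 pairs macrophages stood 0.193 to 0.267 higher, with an exact paired permutation p of 0.125, the smallest that 4 pairs allow. The offset of 7D sham microglia from 0 is a difference between the sets, in which time, sequencing depth and fragment length (157 to 171 nt in the 24h set, 178 to 193 nt in the 7D set) cannot be told apart. Without 24h macrophage replicate 3, whose labels conflict, the position difference between macrophages and sham microglia was 0.502, and it was 0.488 to 0.516 over the 12 alternatives run.

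**Figure D3:**
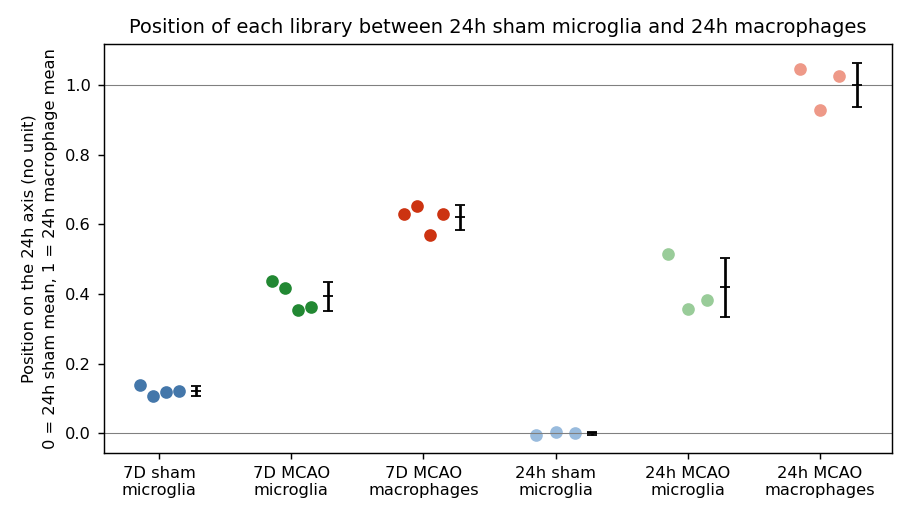
Position of each of the 21 libraries (points) on the line from the mean of 24h sham microglia (0) to the mean of 24h macrophages (1); bars give the group mean and SD. The 4 libraries of 7D macrophages lie between 0.57 and 0.65, above all 7D microglia; the 24h macrophages lie at 1 by construction.

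The transcripts that mark 24h macrophages most strongly were followed one list at a time. The first list held the 409 transcripts that were at least 8-fold higher in 24h macrophages than in 24h sham microglia and at least 4-fold higher than in 24h MCAO microglia, each past the threshold. They took 6.46% ± 1.08 of counts in 24h macrophages and 0.215% ± 0.0146 in 24h sham microglia (SD, n = 3), values that chose the list. In 7D macrophages they took 1.43%, 2.06%, 1.53% and 1.96% of counts, and in 7D sham microglia 0.418%, 0.389%, 0.355% and 0.424%. The range in 7D MCAO microglia was 0.423% to 0.550%, beside the sham values. All 4 macrophage libraries lay above all 8 microglia libraries of their set, so the libraries titled as macrophages carried more of these transcripts than those titled as microglia, whatever their other label fields read.

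Of these 409 transcripts, 347 rose in 7D macrophages against 7D sham microglia and 0 fell, where 28.4% of all transcripts tested rose. The median log2 fold change was 2.12 (25th to 75th percentile 1.46 to 2.88), and 99 were at least 8-fold higher. Against 7D MCAO microglia, 292 were higher and 0 lower, with a median of 2.00. Of all transcripts tested, 6.51% were higher and 4.48% lower in that contrast. The median of MCAO microglia against sham microglia was -0.0029. With the 24h libraries of conflicting labels left out, the list held 370 transcripts, of which 321 rose, and their share of counts was 1.39% in 7D macrophages, 0.293% in 7D MCAO microglia and 0.368% in 7D sham microglia.

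The opposite list gave another order. It held the 383 transcripts that were at least 8-fold lower in 24h macrophages than in 24h sham microglia and at least 4-fold lower than in 24h MCAO microglia. In the 24h set, which chose them, they took 11.0% ± 0.0462 of counts in sham microglia, 4.79% ± 1.04 in MCAO microglia and 0.603% ± 0.246 in macrophages (SD, n = 3). In 7D macrophages they took 4.23%, 4.48%, 5.14% and 5.08% of counts, in 7D MCAO microglia 5.04%, 5.30%, 6.62% and 5.57%, and in 7D sham microglia 10.7%, 10.4%, 11.0% and 10.5%. The late macrophages lay far below sham microglia, and their range touched that of MCAO microglia, although macrophages were lower in each of the 4 same-numbered pairs (differences of -1.49 to -0.489 percentage points). The lowest 7D macrophage library held more of these transcripts than the highest 24h macrophage library, at 0.887%. The 24h macrophages were chosen to be low here, and the sets differ in depth and fragment length, so this gap is a description. Without the single most abundant transcript of the list, the means were 2.79% ± 0.269 in 7D macrophages, 3.58% ± 0.349 in 7D MCAO microglia and 7.33% ± 0.0402 in 7D sham microglia. The macrophage libraries then held 2.53%, 2.58%, 3.05% and 2.99% and the MCAO microglia libraries 3.27%, 3.38%, 4.06% and 3.61%, so that these groups no longer overlapped and the overlap rested on that transcript.

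Of the 383 transcripts, 318 fell in 7D macrophages against 7D sham microglia and 4 rose, where 28.1% of all transcripts tested fell. Their median log2 fold change was -1.74 (25th to 75th percentile -2.73 to -1.02), and 74 were still at least 8-fold lower. Against 7D MCAO microglia 78 were lower and 2 higher, where 4.48% of all transcripts tested were lower and 6.51% higher. The median in that contrast was -0.51, while MCAO microglia stood at a median of -1.28 against sham. In sorted bulk RNA, a mixture of microglia and macrophages in a library and an intermediate level in each cell cannot be told apart. With the 24h libraries of conflicting labels left out, 310 transcripts were listed, 255 fell, and the share of counts was 4.17% in 7D macrophages, 4.97% in 7D MCAO microglia and 8.85% in 7D sham microglia.

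Of the 12789 transcripts tested in both sets, 10375 fell by their 24h calls into the classes described here and 2414 into none. The classes were those called in macrophages and not in MCAO microglia, those called in both with no difference called between them, those called in all 3 comparisons by steps, and those called in none. Transcripts that were high in both 24h cell types relative to sham, with no difference called between them (1171), rose in 7D macrophages in 884 cases (75.5%), with a median log2 fold change of 0.70. Their low counterparts (1116) fell in 913 cases (81.8%), with a median of -0.64. Most transcripts shared with injured microglia at 24 h were thus called the same way in late macrophages. Over all 12789, 29.0% rose and 28.5% fell.

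Transcripts called in 24h macrophages, against both kinds of microglia, but not in 24h MCAO microglia, lay nearer to 0 in late macrophages. Of 1239 that were higher, 580 rose in 7D macrophages (46.8%) and 32 fell, with a median log2 fold change of 0.35. Of 1383 that were lower, 681 fell (49.2%) and 73 rose, with a median of -0.40. Their medians in the 24h contrast, which chose them, were 0.94 and -1.17, against 0.88 and -0.73 for the shared transcripts.

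The stepped transcripts, which differed between all 3 cell groups at 24 h in the same direction, were nearly all called again. Of 1453 high ones, 1303 rose in 7D macrophages (89.7%, median 0.88), and of 1126 low ones, 1037 fell (92.1%, median -0.90). Of 2887 transcripts called in none of the 24h comparisons, 270 rose (9.35%) and 390 fell (13.5%). The 24h fold changes helped to choose these classes, so their size against the 7D values is a description. Without the 24h libraries of conflicting labels, 82.1% of the shared high and 54.7% of the macrophage-only high transcripts rose, and 85.7% and 51.3% of their low counterparts fell.

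**Figure D4:**
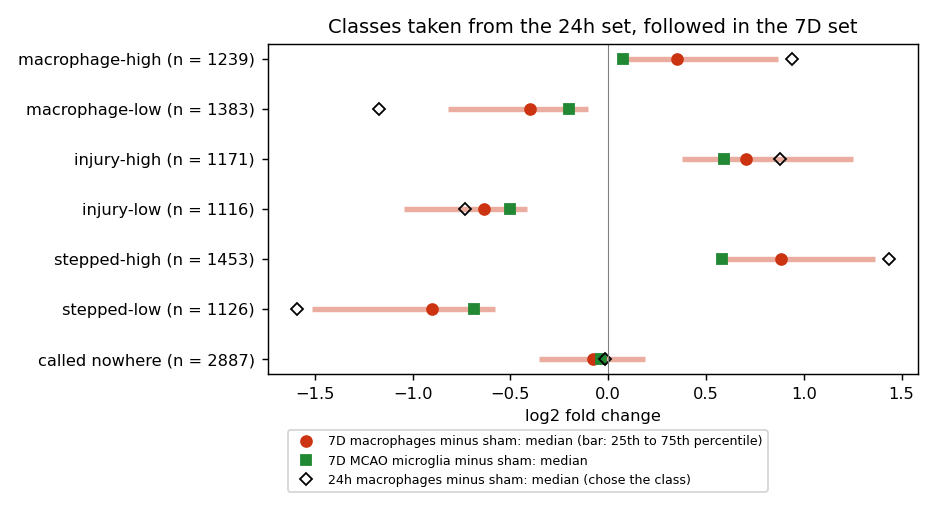
Median log2 fold change in the 7D set of transcripts sorted by the 24h set alone (rows, with their number), for macrophages (circles, bars from the 25th to the 75th percentile) and MCAO microglia (squares) against sham microglia, beside the 24h macrophage median that chose the class (diamonds). Rows named injury (called in both 24h cell types, with no difference called between them) lie at 0.70 and -0.64, against 0.88 and -0.73 at 24 h. Rows named macrophage (called in 24h macrophages and not in 24h MCAO microglia) lie at 0.35 and -0.40, against 0.94 and -1.17. The names stand for patterns of 24h calls only.

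The only named genes in the files are Chi3l1 and Nos2. Their lines stand apart from the transcript lines and may be a separate quantification, so their reads may also be counted in listed transcripts, and their CPM is not compared with that of transcripts. Chi3l1 encodes a secreted chitinase-like protein that binds chitin without cutting it and is often used as a marker of alternatively activated macrophages. Its level was 4.58, 8.07, 7.89 and 35.2 CPM in 7D macrophages, and 16.67, 12.75, 7.68 and 13.02 CPM in 7D sham microglia. Macrophage replicate 4 was above all sham libraries, replicate 1 was below them all, and the other 2 lay near the lowest of them. The log2 fold change was 0.16 ± 0.53 (SE; edgeR, adjusted p = 0.819), and the exact two-sided permutation p was 0.771. Without macrophage replicate 4 it was -0.84 ± 0.31 (edgeR, adjusted p = 0.0409), lower in macrophages, so this library decided the direction and the call.

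Chi3l1 was lowest in the third cell group. Its level in 7D MCAO microglia was 2.32, 2.22, 3.73 and 1.93 CPM, below every macrophage and every sham library. The log2 fold change was -2.30 ± 0.58 against sham microglia (edgeR, adjusted p = 0.00673), and macrophages stood 2.46 ± 0.58 above MCAO microglia (edgeR, adjusted p = 0.0188), or 1.44 ± 0.32 without macrophage replicate 4 (edgeR, adjusted p = 0.0203). At 24 h Chi3l1 was 117.7, 90.7 and 168.3 CPM in macrophages and 9.92, 17.9 and 16.6 CPM in sham microglia, a log2 fold change of 3.07 ± 0.65. The macrophage contrast of the 7D set minus that of the 24h set was -2.88 ± 0.89 on the log2 scale (edgeR interaction, adjusted p = 0.0231), and -3.86 ± 0.74 without that library (adjusted p = 0.00113).

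Nos2 encodes the inducible nitric oxide synthase, which makes nitric oxide in inflammatory macrophages. Its level was 0, 1.25, 0.355 and 24.0 CPM in 7D macrophages, and 4.27, 2.23, 0.714 and 2.18 CPM in 7D sham microglia. The same macrophage replicate 4 that was high for Chi3l1 held 355.15 expected counts of Nos2, where the other 3 held 0, 15.57 and 3.53. A count of 0 in replicate 1 allows up to 0.221 CPM (3 counts, for counting error only). The log2 fold change of Nos2 came to 1.45 ± 1.25 (SE; edgeR, adjusted p = 0.348; exact permutation p = 0.657). Without replicate 4 it was -2.08 ± 1.04 (edgeR, adjusted p = 0.117).

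In 7D MCAO microglia Nos2 was 0.232, 0, 0 and 0.276 CPM, at or near the level of 3 counts. At 24 h it was 20.9, 5.80 and 33.3 CPM in macrophages and 0.536, 3.26 and 1.59 CPM in sham microglia. The difference between the sets in the macrophage contrast was -1.96 ± 1.77 (edgeR interaction, adjusted p = 0.473), and -5.48 ± 1.44 without macrophage replicate 4 (adjusted p = 0.0104), so this library decided that call too. Macrophage replicate 4 was not generally apart: it was the separate high library for 128 transcripts (0.956%), against 97 to 182 for the other 3. Whether Nos2 and Chi3l1 share a source in that library was not tested.

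**Figure D5:**
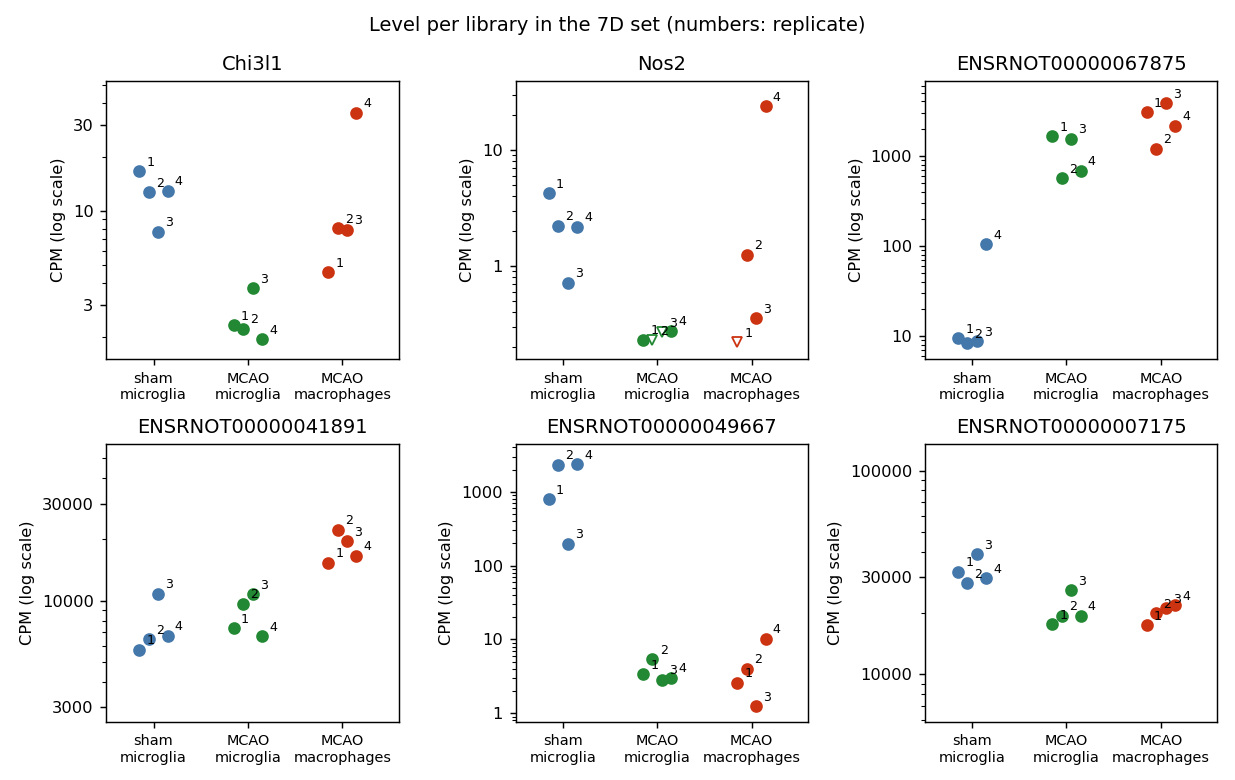
Level of Chi3l1, Nos2 and the 4 transcripts described in the text in each library of the 7D set, in CPM on log axes that differ between panels; filled points are libraries numbered by replicate, and open triangles mark libraries with 0 counts, drawn at the CPM of 3 counts. Macrophage replicate 4 is the highest library of Chi3l1 (35.2 CPM) and Nos2 (24.0 CPM). The groups of macrophages and sham microglia do not overlap in the 4 transcripts, which was a condition of their choice.

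The 4 transcripts shown, 2 in each direction, were chosen by their difference between 7D macrophages and 7D sham microglia. Both its size and the lack of overlap between these groups are theirs by choice. Among higher transcripts at a mean log2 CPM of 3 or more and without overlap of the groups, the largest fold was that of ENSRNOT00000067875 (1467 nt), at 3030, 1202, 3815 and 2160 CPM in macrophages and 9.54, 8.43, 8.84 and 104.7 CPM in sham microglia. All macrophage libraries were far above all sham libraries, and sham replicate 4 was separate from the other 3. On the log2 scale macrophages were higher by 6.28 ± 0.96 (edgeR, adjusted p = 0.000175), and by 8.16 without sham replicate 4. The level in 7D MCAO microglia was 1657, 565.4, 1540 and 680.2 CPM, and macrophages stood 1.20 ± 0.77 above them on the log2 scale (edgeR, adjusted p = 0.368). The 24h libraries held 2597 ± 613.8 CPM in macrophages and 4.42 ± 3.39 CPM in sham microglia (SD, n = 3), beside 2552 ± 1126 CPM in 7D macrophages (n = 4).

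The transcript with the largest rise in CPM, ENSRNOT00000041891 (1144 nt), behaved differently towards MCAO microglia. Its level was 15390, 22380, 19670 and 16660 CPM in 7D macrophages, and 5751, 6490, 10830 and 6739 CPM in 7D sham microglia. The groups did not overlap, and sham replicate 3 was the highest sham library. The log2 fold change was 1.31 ± 0.22 (edgeR, adjusted p = 0.000299). MCAO microglia of the 7D set held 7339, 9700, 10810 and 6710 CPM, all within the range of the sham libraries, and the log2 fold change of macrophages against them was 1.10 ± 0.22 (edgeR, adjusted p = 0.007). The 24h log2 fold change of macrophages against sham microglia was 1.48 ± 0.07, and the contrast differed between the sets by -0.14 ± 0.26 (edgeR interaction, adjusted p = 0.754). This 1 transcript took 1.50% to 2.13% of all counts of the macrophage libraries.

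Among lower transcripts whose mean log2 CPM was 3 or more, and whose groups did not overlap, the largest fold was that of ENSRNOT00000049667 (1926 nt), at 2.58, 3.99, 1.24 and 10.3 CPM in 7D macrophages and 790.1, 2342, 199.2 and 2369 CPM in 7D sham microglia. Sham libraries differed more than 10-fold among themselves, and the lack of overlap with macrophages was a condition of the choice. The log2 fold change was -8.27 ± 0.90 (edgeR, adjusted p = 1.35e-05). In 7D MCAO microglia it was as scarce as in macrophages, at 3.40, 5.42, 2.84 and 3.04 CPM, and the log2 difference of macrophages from them was 0.33 ± 0.81 (edgeR, adjusted p = 0.853). In the 24h set it was 13.7, 2.96 and 23.8 CPM in macrophages and 2574 ± 329.8 CPM in sham microglia (SD, n = 3). Its counts equal those of 1 other listed transcript in all 21 libraries, so the 2 are 1 measurement.

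The transcript with the largest fall in CPM, ENSRNOT00000007175 (723 nt), differed between the sets by more than the other 3 transcripts named here. It was 17480, 19930, 21140 and 21780 CPM in 7D macrophages, and 31950, 28100, 38790 and 29580 CPM in 7D sham microglia. All macrophage libraries were lower. The log2 fold change was -0.68 ± 0.14 (edgeR, adjusted p = 0.00112), or 1.60-fold, and -0.54 without sham replicate 3. The transcript's level in 7D MCAO microglia was 17660, 19390, 25800 and 19410 CPM. The log2 difference of macrophages from them was -0.03 ± 0.13 (edgeR, adjusted p = 0.911). In the 24h set it was 916.0, 1830 and 842.5 CPM in macrophages, 9790, 17270 and 12740 CPM in MCAO microglia, and 28620, 28860 and 30660 CPM in sham microglia. The 24h macrophages differed from sham microglia by -4.62 ± 0.35 on the log2 scale, and the contrast of the 7D set differed from that by 3.97 ± 0.33 (edgeR interaction, adjusted p = 5.33e-07). It is the most abundant transcript of the list that was scarce in 24h macrophages.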

How the data were processed

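Sorted rat cells were profiled by strand-specific sequencing of polyadenylated RNA, per the labels' protocols. Per the submitters' processing notes, the authors ran bcl2fastq, TopHat2 and RSEM on rn5. Their versions and the annotation are not given in the sources used here. RSEM expected counts, TPM and FPKM were deposited per transcript, per the file headers. FPKM, deposited beside them, served only to read the Chi3l1 and Nos2 lines, whose values sit 2 columns to the right, with the expected count under FPKM. TPM, as deposited by the authors, entered only the weighted length, an alternative and side values. Transcript lengths (another measure) came from the deposited files.

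Rounded expected counts went into edgeR 4.0.16 under R 4.3.3 (quasi-likelihood test, TMM, filterByExpr with a minimum count of 10 and total of 15, one term per group, 12 libraries of the 7D set, threshold 0.05). Interactions used all 21 libraries. The filter kept 13384 of 30404 transcripts; the other transcripts were not tested. Each standard error is the size of the log2 fold change over the root of its F value. Projection and distances used log2 CPM (prior count 1) of the 14252 transcripts that passed the same filter over all 21 libraries. A library was separate where Dixon's ratio was above 0.829, on log2(CPM + 0.1) for sham replicate 3 and on CPM for macrophage replicate 4. In simulated data with 13120 transcripts, the model recovered 67 of 100 changes of 2-fold and 85 of 100 of 4-fold, with 8 false calls. Far fewer transcripts changed there than were called here, so it does not measure the error at this share of calls. RSEM divides shared reads among isoforms and copies, so a transcript's change can be a change in that division; 114 tested transcripts had the counts of another in all libraries. The deviations of same-numbered libraries correlated at r = 0.22 to 0.30 between 7D macrophages and 7D MCAO microglia, a pairing found in the data alone.

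The libraries, classes and lists were chosen with earlier results of these data known. The rule for naming took, per direction, the called transcript without overlap that had the largest fold (mean log2 CPM 3 or more) and the one with the largest CPM difference, plus Chi3l1 and Nos2. Alternatives were other tests (limma-voom 3.58.1, DESeq2 1.42.0), normalisations, filters, library sets, a replicate block and leaving out each library.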

Additional observations from a re-analysis of the deposited data

Results flagged for a closer look

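Single libraries far from the other 3 of their group, by a rule that flags about 1 in 20 groups by chance, were found for 6 values. Macrophage replicate 4 was high for Chi3l1 (35.2 CPM) and for Nos2 (24.0 CPM). Sham replicate 4 was high for ENSRNOT00000067875 (104.7 CPM). Sham replicate 3 was high for the share of counts in its 100 most abundant transcripts (29.7%) and in its 1000 most abundant transcripts (62.4%), and low for the TPM-weighted mean transcript length (1578 nt).

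The contrast of macrophages with sham microglia differed between the 7D set and the 24h set, by edgeR's interaction test, for Chi3l1 (-2.88 on the log2 scale, adjusted p = 0.0231; -3.86 without macrophage replicate 4) and for ENSRNOT00000007175 (3.97, adjusted p = 5.33e-07). The sets also differ in depth and fragment length, and the part of these in the differences was not tested.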

How the results depend on the processing

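Counts of higher and lower transcripts were within 1.5 times of the reported ones under 24 of 25 alternatives each; glmTreat against 2-fold gave 939 and 704, by construction. Without each library in turn they were 3491 to 4375 and 3250 to 3841. A minimum count of 50 left 920 transcripts at least 2-fold lower. The 4 transcripts kept direction and call in all 22 alternatives. They were chosen in these same libraries as called, without overlap and with the largest differences, so this is no independent support. Chi3l1 turned to -0.23 with limma-voom, and Nos2 to -1.22. Without macrophage replicate 4 and sham replicate 3 together (chosen after seeing the data) they were -1.02 (edgeR, adjusted p = 0.0102) and -2.38 (edgeR, adjusted p = 0.0723). Without each library in turn, or these 2, Chi3l1 ran from -1.02 to 0.50 and Nos2 from -2.38 to 1.91, with -0.84 and -2.08 without macrophage replicate 4; over all alternatives their adjusted p was 0.0102 to 0.969 and 0.0723 to 0.830. The cause was not tested beyond these libraries.

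With the replicate block, Chi3l1 was -0.15 and Nos2 -0.34. Same-numbered macrophage and sham libraries share only a number (r = 0.092, 0.098, -0.052 and -0.10). Between 7D macrophages and 7D MCAO microglia the block gave 1153 higher and 874 lower transcripts and changed no call of a gene or transcript described; the paired p of the position is 0.125 beside 0.0286.

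The distance between macrophage and sham libraries was 1.15 with a prior count of 5 and 0.958 over transcripts whose mean log2 CPM was 3 or more. The macrophage minus sham difference in the share of the 10 most abundant transcripts was -2.02 percentage points with TPM. Without sham replicate 3 all 5 composition differences had an adjusted exact permutation p of 0.0286, the smallest that 4 against 3 libraries allow. That library was flagged as apart in some of these same measures, so this p is no independent support. Leaving out each library gave 0.365 to 1.06, 0.477 to 1.77 and 1.19 to 2.51 percentage points for the 10, 100 and 1000 most abundant, -417.8 to -212.5 transcripts at 1 CPM or more, and -201.1 to -149.3 nt. Gene-level sums were not run, since the files used here group no transcripts by gene.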
